A study of Mus musculus with 4 samples.

Results

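The expression of 10 mouse genes of the Dppa group and the germ line (Dppa2, Dppa3, Dppa4, Dppa5a, Dazl, Mael, Sycp3, Stk31, Tex19.1 and Prdm14) was followed among 21374 genes with a summed value. The genes were taken from a named list, drawn up with earlier results of these data known, and each was found in the tables by its GRCm38 locus. Transcript length matched as well for every row of Mael and Stk31. The rows of Dppa2, Dppa3, Dppa4, Dppa5a, Tex19.1 and Prdm14, and the main row of Dazl, were assigned as the only coding gene of their locus. Libraries were made from total RNA with a TruSeq RNA protocol and sequenced from both ends. All 4 libraries came from 46C mouse embryonic stem (ES) cells in which the Atad2 gene carries a TAP tag, grown without feeder cells on gelatin in serum with LIF. In 2 libraries (si-ctrl 1 and 2) the cells had received a scrambled siRNA, and in the other 2 (si-Atad2 1 and 2) an siRNA against Atad2, a bromodomain protein with an ATPase domain that binds acetylated histones. The tagged line is 1 clone, and its knock-in allele is shared by knockdown and control cells. The sources used here mention more than one active siRNA and repeated sequencing of each RNA without saying which library holds which. The difference between libraries of a group may thus be technical, and p-values then measure only that spread. It may also be that si-Atad2 1 and 2 hold different siRNAs, and their difference would then include that of the siRNAs.

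Most of these genes belong to a set that pluripotent cells share with germ cells. Dppa2 and Dppa4 are a pair of SAP-domain DNA-binding proteins encoded side by side, Dppa3 (Stella, PGC7) protects the methylation of the maternal genome in the zygote, and Dppa5a (Esg1) is a small KH-domain RNA-binding protein. Prdm14 represses differentiation and DNA methylation in naive ES cells and is needed to specify primordial germ cells. Dazl, Mael, Sycp3, Stk31 and Tex19.1 act later in germ cells, and in somatic cells such genes are kept silent by promoter DNA methylation and by a variant Polycomb complex that holds the DNA-binding proteins E2F6 and Mga with its partner Max. Max and its partners bind the E-box CACGTG, and GCGGGA is a common core of E2F sites.

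Promoters of 5 of the 10 genes, Mael, Stk31, Sycp3, Tex19.1 and Dazl, were listed in the RefSeq promoter table (GRCm38.p6), with a pair of overlapping starts for Stk31. The E-box CACGTG, which reads the same on both strands, and GCGGGA on either strand were searched in each 300-base window from 250 bases before to 50 after the start. The 250 bases upstream of the start of 4 of them are printed on the sense strand, 5′ to 3′, because they hold the letters through which Max, Mga and E2F6 are known to be recruited to germline genes. Capitals mark CACGTG and GCGGGA, or its reverse complement TCCCGC. The windows are chr10:88459337-88459586 (plus strand) for Sycp3, chr1:166238745-166238994 (minus strand) for Mael, chr6:49395354-49395603 (plus strand) for Stk31 and chr11:121145893-121146142 (plus strand) for Tex19.1.
Sycp3: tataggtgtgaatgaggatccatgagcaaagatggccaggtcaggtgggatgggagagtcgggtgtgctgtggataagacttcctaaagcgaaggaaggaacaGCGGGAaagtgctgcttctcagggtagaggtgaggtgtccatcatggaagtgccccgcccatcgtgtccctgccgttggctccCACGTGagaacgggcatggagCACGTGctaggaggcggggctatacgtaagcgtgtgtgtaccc
Mael: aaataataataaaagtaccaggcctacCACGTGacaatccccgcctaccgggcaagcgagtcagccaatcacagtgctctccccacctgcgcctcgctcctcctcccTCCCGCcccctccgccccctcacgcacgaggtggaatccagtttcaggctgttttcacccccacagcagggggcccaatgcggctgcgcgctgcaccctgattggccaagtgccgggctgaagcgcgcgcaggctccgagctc
Stk31: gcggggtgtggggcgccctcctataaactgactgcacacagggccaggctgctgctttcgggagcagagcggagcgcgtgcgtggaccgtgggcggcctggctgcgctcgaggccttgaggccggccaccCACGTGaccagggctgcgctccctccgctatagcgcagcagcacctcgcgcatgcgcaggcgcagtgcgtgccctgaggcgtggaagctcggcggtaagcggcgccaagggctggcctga
Tex19.1: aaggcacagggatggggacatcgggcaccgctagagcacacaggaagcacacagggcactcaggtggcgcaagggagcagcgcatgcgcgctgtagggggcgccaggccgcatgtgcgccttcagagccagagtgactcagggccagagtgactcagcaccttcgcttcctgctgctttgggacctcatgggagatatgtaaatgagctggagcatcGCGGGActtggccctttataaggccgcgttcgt

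CACGTG was present in 3 of the 5 genes, against 8.09% of the 27025 genes in the table. Sycp3 held it at -64 and again at -43 from the start, Mael at -223 and Stk31 at -120. GCGGGA was present in 3 of the 5 genes, against 22.0% of all genes, at -147 in Sycp3, -143 in Mael and -33 in Tex19.1. All 6 member windows were rich in CpG, with 15 to 29 of these dinucleotides against a median of 7 over 32851 windows, and among windows with at least 15 CpG the shares were 11.3% for CACGTG and 45.4% for GCGGGA. The window of Dazl held neither motif. No matches of one motif overlapped those of the other, a match is only a match of letters, and binding was not measured in these libraries.

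The knockdown itself was read first. Summed over its transcripts, Atad2 stood at 34.1 and 36.0 FPKM (fragments per kilobase, relative to all mapped fragments of a library) in si-ctrl 1 and 2, and at 10.1 and 13.0 FPKM in si-Atad2 1 and 2. Its mean log2 ratio of FPKM + 1 was -1.53 (SE 0.077, limma adjusted p = 1.0e-05), the lowest ratio among the 10552 genes tested. A tested gene had a mean of at least 1 FPKM over the 4 libraries, and its ratio was taken within each same-numbered pair of libraries, which the authors quantified together. Over all tested genes the median log2 ratio was -0.0084, and 167 genes rose and 46 fell at an adjusted p under 0.05. All 9 ES cell markers were at or above 1 FPKM, with a summed 2454 to 2649 FPKM per library. Of 9 fibroblast markers, 2 reached 1 FPKM and the list summed to 7.80 to 9.07 FPKM, with Col3a1, Postn, Lum, Dcn and Fap under 0.1 in every library. Of 7 measured markers of spermatogenic cells (9 listed), 1 reached 1 FPKM, the list summed to 2.07 to 2.25 FPKM, and Tnp1, Acrv1, Odf1 and Pgk2 were under 0.1 in every library. Of 6 ectoderm markers 4 were at or above 1 FPKM, with sums of 57.1 and 61.1 FPKM in the controls and 62.5 and 56.3 in the knockdowns, while the endoderm, mesoderm and trophoblast lists summed to 4.79 to 9.04 FPKM. None of the markers in these 7 lists passed the adjusted test between groups. The files hold no read counts, so depth is unknown, but the authors' 95% interval spanned from 1.25% of the value on either side for Dppa5a to 14.2% for Dppa3.

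All 10 genes were detected in control ES cells, over a range that set Dppa5a apart from the rest. The mean of the 2 si-ctrl libraries was 985 FPKM for Dppa5a, 58.5 for Tex19.1, 42.7 for Dppa2, 39.1 for Dppa4, 26.6 for Sycp3, 15.8 for Mael, 13.3 for Prdm14, 9.10 for Dppa3, 9.03 for Dazl and 5.71 for Stk31. Because FPKM is per length, these levels may be ordered, and only the neighbours Dppa3 and Dazl had control ranges that overlapped. Dppa5a was higher than 99.9% of tested genes and Stk31 higher than 36.1%. Dppa5a alone supplied 78.4% to 82.0% of the summed FPKM of the 10 genes in the 4 libraries, and its level was 1.16 to 1.32 times that of Pou5f1, the gene for the pluripotency factor Oct4. In bulk RNA, a low level such as that of Dazl or Stk31 cannot separate a few cells with much transcript from many cells with little.

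**Figure D1:**
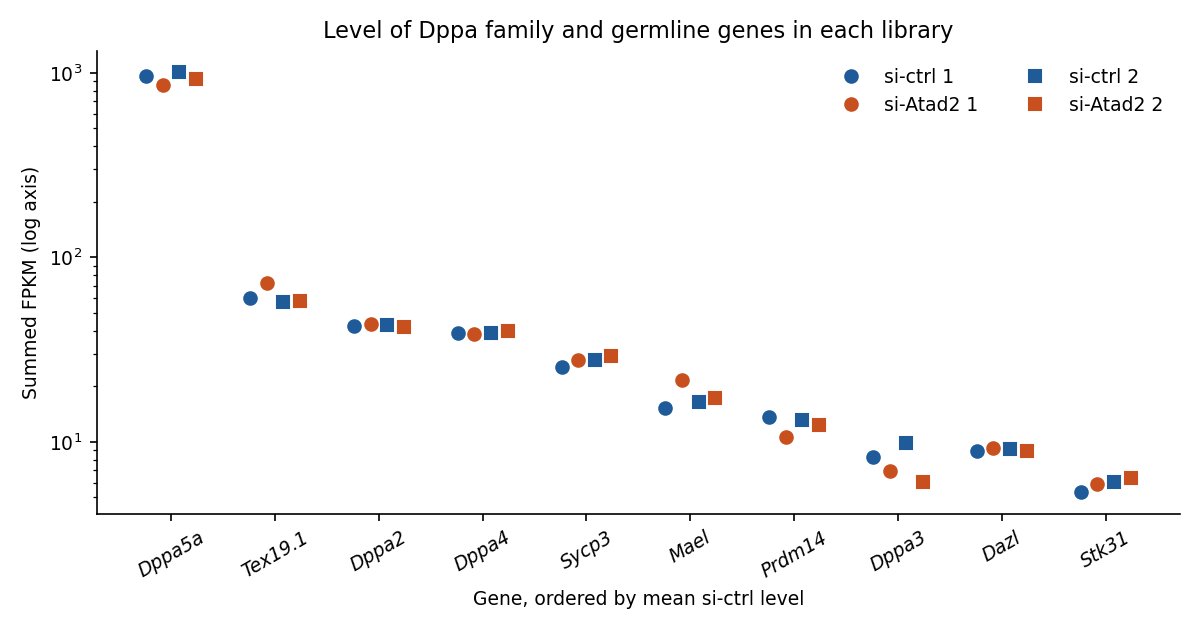
Summed FPKM (log axis) of each gene in the 4 libraries, in order of the mean control level. Blue marks are si-ctrl, orange marks si-Atad2, circles pair 1 and squares pair 2. Dppa5a lies near 1000 FPKM in all libraries and the other genes between 5.32 and 73.0 FPKM, and the differences between libraries are small against those between genes.

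After knockdown none of the 10 genes passed the adjusted threshold (limma, 0 of 10, against 2.02% of all genes tested, 1.58% higher and 0.436% lower), and 4 of 10 had an unadjusted p under 0.05 in that fit, against 16.3% of all genes. Dppa3, Dppa5a and Prdm14 were lower in both si-Atad2 libraries than in both si-ctrl libraries, and Mael was higher. These 4 of 10 genes with groups that did not overlap stand beside 49.2% of all tested genes, the 3 lower beside 26.8% and the 1 higher beside 22.5%. By direction within pairs, 4 of 10 genes were higher in both pairs (28.7% of all genes), 3 were lower in both (34.0%) and 3 had opposite signs. By the authors' 95% intervals of each gene's main transcript, 4 of 10 were apart in pair 1 (31.0% of all transcripts) and 2 in pair 2 (22.6%). The median log2 ratio of the 10 genes was 0.0039. In 3 genes, Dppa3, Dppa5a and Prdm14, the mean ratio was larger than the difference between libraries of either group, as it was in 34.7% of all genes. With 2 libraries in each group, an exact two-sided permutation test of a single gene cannot give a p below 0.333.

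**Figure D2:**
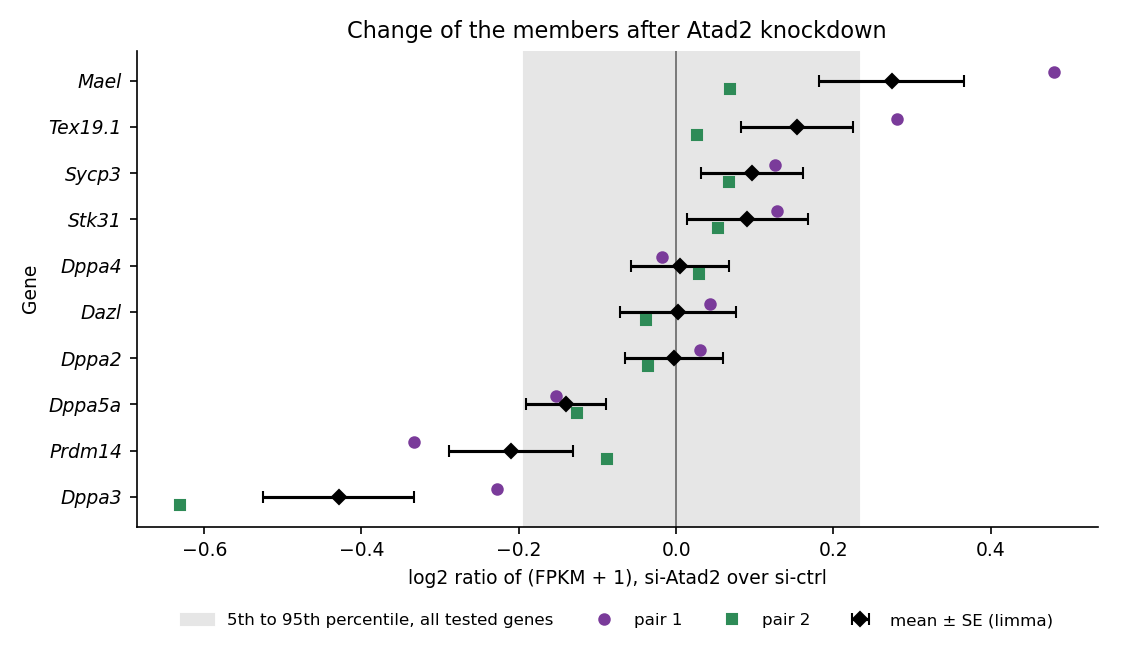
The log2 ratio of FPKM + 1, si-Atad2 over si-ctrl, for pair 1 (circle), pair 2 (square) and their mean ± SE from limma (diamond). The grey band spans the 5th to 95th percentile of the mean ratio over all tested genes. Dppa3 and Prdm14 lie below the band, Mael above it, and the means of Dppa2, Dppa4 and Dazl sit at 0.

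Dppa3, a maternal factor that shields the zygotic genome from loss of methylation and marks the most naive ES cells, had the lowest ratio of the 10. Its transcript stood at 8.31 FPKM in si-ctrl 1 and 6.95 in si-Atad2 1, and at 9.89 in si-ctrl 2 and 6.03 in si-Atad2 2. Both knockdown libraries were below both controls, at 0.836 and 0.610 of the control of their pair. The mean log2 ratio was -0.43 (SE 0.096, unadjusted p = 0.0010, limma adjusted p = 0.051), just outside the threshold, and only 0.246% of tested genes had a lower ratio. With the alternative that left out 1 step of assigning transcripts to genes, chosen after the data were seen, the adjusted p was 0.044. It was 0.042 with a pseudocount of 0.1 FPKM and 0.031 with a minimum mean of 5 FPKM. The other alternatives that kept all 4 libraries gave from 0.053 (pseudocount of 5 FPKM) to 0.460 (no filter on low values), and none of these made the call. The value in pair 2 was the larger, and there the authors' 95% intervals, 8.77 to 11.0 FPKM for the control and 5.18 to 6.89 for the knockdown, did not meet. In pair 1 the intervals of 7.31 to 9.30 and 6.04 to 7.86 FPKM overlapped. The gene lies at chr6:122626410-122630272 on the plus strand, and its mRNA matched 2 other annotated genes at 90% identity or more, Dppa3-ps among them, so that some of its reads could be shared.

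Among tested genes, the 3 whose levels ran closest to those of Dppa3 over the 4 libraries were Zc3h12a, which encodes an RNase that degrades inflammatory mRNAs, Sms, spermine synthase, and B4galt1, a galactosyltransferase. Likeness was the Euclidean distance of log2 (FPKM + 1), at 0.226, 0.274 and 0.291. Zc3h12a stood at 7.88 and 8.44 FPKM in the controls and 7.29 and 5.95 in the knockdowns, with its lower value, like that of Dppa3, in si-Atad2 2.

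Dppa5a was the most abundant of the group and its ratio was much the same in both pairs. It stood at 957.6 and 1013 FPKM in the controls and at 861.1 and 928.2 FPKM in the knockdowns, ratios of 0.899 and 0.916. Both knockdown values were below both control values, and the log2 ratio of -0.14 (SE 0.051) had a limma adjusted p of 0.204, and 11.0% of tested genes had a lower ratio. The 95% intervals were narrow for this gene, 945.6 to 969.5 against 849.5 to 872.7 FPKM in pair 1 and 1000 to 1026 against 916.2 to 940.1 in pair 2. It was the only member whose main transcript had intervals that did not meet in both pairs, which 9.08% of all rows showed in 1 direction. The controls differed by 0.081 on the log2 scale. Dppa5a is a short gene at chr9:78367052-78368177 on the minus strand with 8 other annotated genes, processed copies among them, that match its mRNA at 90% identity or more, and its level is uncertain to that extent.

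Dppa2 and Dppa4, which bind DNA as a heterodimer and prime bivalent and early zygotic genes, had, with Dazl, the smallest differences of the 10. Dppa2 stood at 42.4 and 43.0 FPKM in the controls and at 43.3 and 41.9 in the knockdowns. Dppa4 stood at 39.1 and 39.1 FPKM in the controls and at 38.6 and 39.9 in the knockdowns. The groups overlapped for both genes, with log2 ratios of -0.0029 (SE 0.062, limma adjusted p = 0.989) and 0.0054 (SE 0.062, limma adjusted p = 0.977), and signs that were opposite in the pairs. The genes are neighbours on the plus strand, Dppa4 at chr16:48283733-48294237 and Dppa2 at chr16:48303908-48319723, with 9670 bases between them. Their levels were also alike, and Dppa2 over Dppa4 was 1.08 and 1.10 in the controls and 1.12 and 1.05 in the knockdowns. Dppa4 had a second row, listed at or near 0 in every library.

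Prdm14, a zinc-finger repressor of FGF signalling and of the Dnmt3 genes in naive cells, stood at 13.6 and 13.1 FPKM in the controls and at 10.6 and 12.3 in the knockdowns. The knockdowns were both below the controls, with ratios of 0.779 and 0.937, and the difference was larger in pair 1. The log2 ratio of -0.21 (SE 0.079) had a limma adjusted p of 0.219, and 3.81% of tested genes had a lower one. Its single row had intervals of 12.9 to 14.2 and 9.97 to 11.2 FPKM in pair 1, which did not meet, and of 12.4 to 13.8 and 11.6 to 12.9 in pair 2, which did. The gene lies at chr1:13113457-13127163 on the minus strand.

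**Figure D3:**
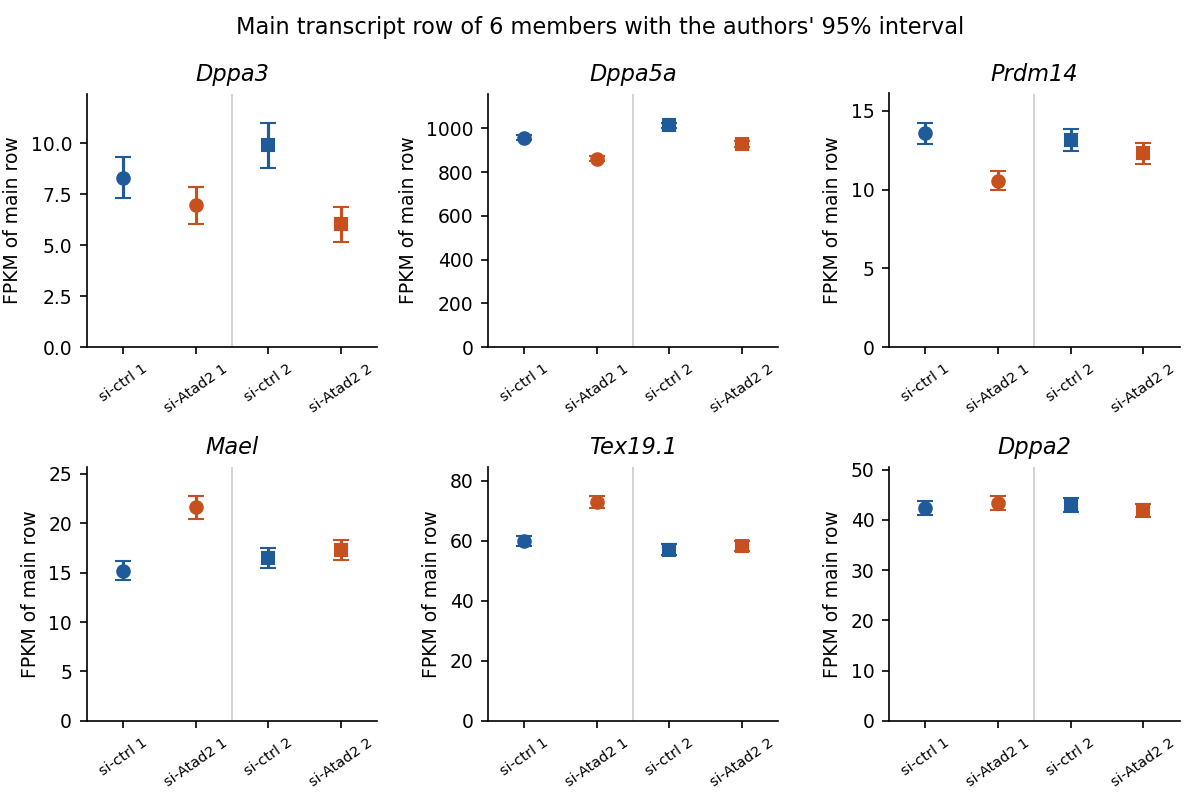
FPKM of the main transcript of 6 genes in each library with the authors' 95% interval. The intervals of Dppa5a are apart in both pairs, those of Mael, Tex19.1 and Prdm14 in pair 1 alone, those of Dppa3 in pair 2 alone, and those of Dppa2 in neither.

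Mael, which encodes an HMG-box protein of the piRNA pathway that silences retrotransposons in the male germ line, was the highest in ratio. It stood at 15.2 and 16.4 FPKM in the controls and at 21.6 and 17.3 FPKM in the knockdowns. All of the knockdown values were above the control values, but the ratio was 1.42 in pair 1 and 1.05 in pair 2, and the knockdowns differed from each other by 0.306 on the log2 scale, more than the mean log2 ratio of 0.27 (SE 0.092, limma adjusted p = 0.172). In pair 1 the intervals of 14.3 to 16.2 and 20.5 to 22.7 FPKM did not meet, and in pair 2 those of 15.4 to 17.5 and 16.3 to 18.3 did. The gene lies at chr1:166201201-166238747 on the minus strand, and its window above holds both motifs.

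Tex19.1, a mammal-specific protein that protects germ cells and placenta from retrotransposons, also differed mainly in pair 1. Its controls stood at 59.9 and 57.1 FPKM and its knockdowns at 73.0 and 58.2 FPKM. Because si-Atad2 2 lay within the control range, the groups overlapped. Ratios on the log2 scale were 0.28 and 0.027 for pairs 1 and 2, averaging 0.15 (SE 0.071, limma adjusted p = 0.319). The intervals were apart in pair 1, 58.2 to 61.6 against 71.1 to 74.9 FPKM, and met in pair 2. Tex19.1 lies at chr11:121146143-121148319 on the plus strand, and exceeded its paralog Tex19.2 by 48.6 to 58.2 times in the 4 libraries. Both Mael and Tex19.1 thus took most of their difference from si-Atad2 1, and the part of that library's technical properties, or of its siRNA, in it was not tested.

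Sycp3, a component of the lateral element of the synaptonemal complex that pairs chromosomes in meiosis, was expressed at 25.4 and 27.9 FPKM in the controls and at 27.8 and 29.3 FPKM in the knockdowns. It was higher in both pairs, by ratios of 1.09 and 1.05, but si-Atad2 1 did not exceed si-ctrl 2. The log2 ratio was 0.097 (SE 0.065, limma adjusted p = 0.503). The gene lies at chr10:88459569-88473236 on the plus strand, where Chpt1 overlaps it on the opposite strand, and as the counting is not stated to use strand, reads of the pair cannot be told apart with certainty. A main transcript of 1122 bases took 76.4% to 78.9% of its FPKM. All rows of Sycp3 were assigned only after transcript ends were moved to the locus bounds, and without that step the gene was not tested.

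Stk31, a Tudor-domain protein of germ cells with a kinase-like region, was the lowest of the 10 in the controls. It stood at 5.32 and 6.09 FPKM in the controls and at 5.91 and 6.36 FPKM in the knockdowns, and the groups overlapped. The log2 ratio was 0.090 (SE 0.077, limma adjusted p = 0.609), and it was 0.0078 without si-ctrl 1 and 0.17 without si-ctrl 2. Its transcripts of 3238 and 1248 bases were both present, the longer at 3.70 and 4.34 FPKM in the controls and 4.09 and 4.15 in the knockdowns, the shorter at 1.62 and 1.75 FPKM in the controls and above both in the knockdowns. Neither row was apart from its controls by the authors' intervals. The gene lies at chr6:49395604-49469501 on the plus strand, where the annotated gene Gm17060 overlaps it, and reads of the overlap cannot be assigned with certainty.

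Dazl, an RNA-binding protein that licenses germ cells for gametogenesis, had groups that overlapped and opposite signs in the pairs. It stood at 8.91 and 9.16 FPKM in the controls and at 9.21 and 8.89 FPKM in the knockdowns, a log2 ratio of 0.0025 (SE 0.073, limma adjusted p = 0.991). Its 2942-base transcript held 89.2% to 93.2% of the gene's FPKM. A 1342-base transcript was lower in both knockdowns (0.627 and 0.626 FPKM) than in the controls (0.882 and 0.989 FPKM), with intervals that overlapped in both pairs, and a further row was listed at 0. The gene lies at chr17:50279395-50293636 on the minus strand.

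Germline genes outside the 10 were read from lists chosen by function. Over all tested genes, 1.58% were called higher, 0.436% were called lower and the median log2 ratio was -0.0084. In the meiosis and synaptonemal complex list, 1 of 13 tested genes rose and none fell (22 listed), with a median log2 ratio of 0.090. The 1 was Stra8, the retinoic-acid target that starts meiosis, at 12.5 and 12.2 FPKM in the controls and 17.8 and 17.5 FPKM in the knockdowns (log2 ratio 0.48, SE 0.068, limma adjusted p = 0.0053). In the list of the piRNA pathway and retrotransposon defence, which holds the partners of Mael and Tex19.1, 2 of 14 tested genes rose and none fell (19 listed), with a median of 0.091. They were the PIWI proteins that load piRNAs in fetal male germ cells, Piwil2 at 3.09 and 2.77 FPKM in the controls and 4.44 and 4.72 in the knockdowns (log2 ratio 0.51, SE 0.085, limma adjusted p = 0.012), and Piwil4 at 2.39 and 2.23 against 3.49 and 3.36 FPKM (log2 ratio 0.42, SE 0.082, limma adjusted p = 0.028). The groups of these 3 genes did not overlap, with si-Atad2 higher, as was so for 22.5% of all tested genes.

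The list of primordial germ cells, to which Prdm14 and Dppa3 are close in role, had its calls in the other direction. Here 3 of 12 tested genes fell and none rose (13 listed), against 0.436% and 1.58% of all tested genes, with a median log2 ratio of -0.077. By sign alone 6 were lower and 3 higher in both pairs, against 34.0% and 28.7% of all tested genes. Tfap2c, a transcription factor that acts with Prdm14 in specifying germ cells, stood at 24.2 and 23.9 FPKM in the controls and 15.7 and 19.4 in the knockdowns (log2 ratio -0.44, SE 0.081, limma adjusted p = 0.023). Nanos3, an RNA-binding protein that keeps early germ cells alive, stood at 2.22 and 2.02 against 1.16 and 1.31 FPKM (log2 ratio -0.48, SE 0.090, limma adjusted p = 0.025). Ifitm1, a membrane protein of early germ cells and ES cells, stood at 108.6 and 99.2 against 84.1 and 83.7 FPKM (log2 ratio -0.30, SE 0.061, limma adjusted p = 0.031). Without the replicate block only Nanos3 passed, with limma adjusted p = 0.029 against 0.063 for Tfap2c and 0.055 for Ifitm1, and with median-of-ratios scaling Ifitm1 had an adjusted p of 0.060.

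The other lists carry the neighbours of the group in oocytes, in silencing and in the zygote. Of the oocyte relatives and partners of Dppa5a, 3 of 8 were tested, none passed and the median log2 ratio was -0.074, with Ooep at 43.9 and 43.6 FPKM in the controls and 34.5 and 42.3 in the knockdowns (limma adjusted p = 0.245) and Khdc3 at 8.55 and 8.88 against 7.64 and 8.86 FPKM (limma adjusted p = 0.685). Of the repressors of germline genes, 17 of 20 were tested, none passed and the median log2 ratio was -0.021 (0.0066 with TPM). Ring1, a Polycomb ubiquitin ligase, stood at 3.22 and 3.28 against 2.12 and 2.82 FPKM (limma adjusted p = 0.132), and Dnmt3l, a cofactor of de novo methylation, at 83.6 and 83.3 against 109.0 and 92.0 FPKM (limma adjusted p = 0.087), though its log2 ratio changed sign, to -0.037 at the lowest, with a length match only and without the match to locus bounds. The median log2 ratio was 0.32 in the list of the two-cell-like state, a rare ES cell state that Dppa2 and Dppa4 are known to promote. Of its genes, 4 of 11 tested rose and none fell (16 listed), against 1.58% and 0.436% of all tested genes. They were Zscan4c, Zscan4d and Zscan4e, of a zinc-finger family of the zygote, and Usp17lb, a deubiquitinase, with log2 ratios of 0.39, 0.58, 0.35 and 0.42 (limma adjusted p = 0.028, 0.0048, 0.039 and 0.028). These are near-identical copies among which reads can be split, so they are uncertain as single genes. Zscan4d stood at 9.02 and 10.2 FPKM in the controls and 15.5 and 14.3 in the knockdowns, while Dppa2 and Dppa4 had the values given above. With si-ctrl 1 or si-ctrl 2 left out, no gene of these lists passed. With the trend on GC content taken out, an alternative of the same fit, only Stra8, Piwil2 and Zscan4d of the 10 genes called in these lists had an adjusted p under 0.05. The medians moved little with it, to 0.086 for the meiosis list, 0.068 for the piRNA list, -0.071 for primordial germ cells and 0.31 for the two-cell-like list.

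**Figure D4:**
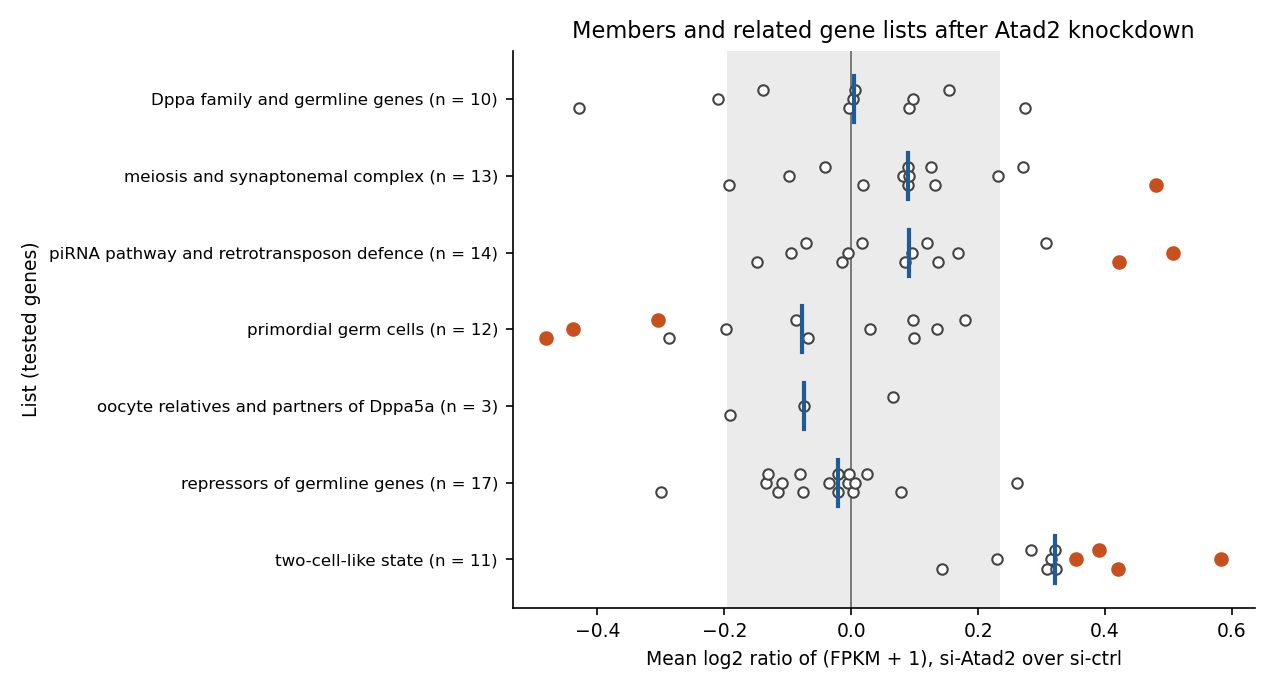
Mean log2 ratio of FPKM + 1, si-Atad2 over si-ctrl, of each tested gene in the 10-gene group and the other lists. Filled orange points passed the adjusted threshold, open points did not, bars mark each list's median, and the grey band is the 5th to 95th percentile of all tested genes. The 10-gene group has no filled point and a median near 0, and the two-cell-like list has the highest median, 0.32.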

How the data were processed

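RNA-seq of 2 si-ctrl and 2 si-Atad2 libraries of 46C ES cells was analysed from tables in which the authors gave FPKM with a 95% interval for each UCSC transcript. Per the labels, reads were processed with TopHat and Cuffdiff (versions not given in the sources used here) and build mm9, whereas the deposited loci are positions of GRCm38. Cuffdiff had been run on each same-numbered pair of libraries, so values are scaled within a pair. Tables of the authors' own fold changes and p-values were not used. No read counts are given, and depth is unknown.

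Rows under 200 bases (6632 of 59120, holding 52.3% to 57.5% of summed FPKM) were dropped. The other rows were assigned to GRCm38 genes of GENCODE by a transcript length within 3 bases (14079 rows), as the only coding gene of the locus (28503) or by length after moving transcript ends to the locus bounds within 100 bases (1892), and 8014 stayed unassigned. FPKM were summed per gene, and 300 genes with a status other than OK were left out. The log2 ratio of FPKM + 1 was taken within each pair (a replicate block), which understates the change of low genes. Genes with a mean of at least 1 FPKM were tested with limma 3.58.1 (R 4.3.3, eBayes with a trend), with Benjamini-Hochberg adjustment over 10552 genes and a threshold of 0.05. Near-identical copies were sought by alignment of each member's mRNA to all annotated transcripts (identity of at least 90% over at least 50% of its length). The method was tested on simulated data with 200 changed genes. It recovered 27% of them at a change of 1.2-fold, 90% at 1.35-fold and 100% at 1.5-fold, so a change of 1.2-fold would mostly be missed. The simulated noise depended on level alone, whereas real genes of the same level can differ in spread. Recovery in these libraries may therefore be lower, and larger changes can be missed too. Tables and figures were made with Python 3.11.15, pandas 2.3.3, scipy 1.17.1, numpy 2.4.6 and matplotlib 3.10.9. The members and the gene lists were chosen with earlier results of these data known. Genes named from the lists are those past the threshold, or otherwise the 2 with the largest ratio of the same sign in both pairs, and Zscan4d was singled out among the called genes after its values were seen. Alternatives covered the pseudocount, the filter, TPM, scaling, row length and assignment, the highest row alone, the block, the trend, GC content and each library left out.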

Additional observations from a re-analysis of the deposited data

How the results depend on the processing

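The number of genes changed, 213, became 0 with no filter on low values, 21 with rows of all lengths, 32 with a length match only, 96 with the highest row alone, 137 without a trend and 108 after correction for GC content in the blocked fit. Without the filter Atad2 itself did not pass (limma adjusted p = 0.343), so a 0 in that setting cannot separate changed genes from unchanged ones. Same-numbered libraries did not deviate together (correlation -0.0062 over tested genes, 2 pairs), so the pairing rests on the authors' runs, and without the replicate block 146 genes were called. With a single library left out, in a fit without the block where the lone sample is taken to vary like the other group, the count ran from 6 (without si-ctrl 1 or si-ctrl 2) over 765 (without si-Atad2 1) to 2024 (without si-Atad2 2). Leaving out a whole pair gives values with no test.

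Among the 10 genes 0 were called, and 1 (Dppa3) with a pseudocount of 0.1, with a minimum mean of 5 FPKM and without the match to locus bounds, and 0 to 4 with a library left out (Dppa3 without si-Atad2 1, and Dppa3, Mael, Tex19.1 and Prdm14 without si-Atad2 2). Without the match to locus bounds 9 of the 10 genes were tested, and with a length match only 2 were, Mael and Stk31. Dppa3 stayed negative in 18 of 18 settings, but this adds little. Both of its knockdown values lay below both controls, so leaving out a library could not turn the sign. Settings that altered only the filter or the test kept its log2 ratio of -0.43. Dppa2 turned to 0.032 with TPM, 0.0028 with median-of-ratios scaling, 0.0060 without si-ctrl 2 and 0.021 without si-Atad2 2. Dppa4 turned to -0.014 with the GC trend removed and -0.018 without si-Atad2 2. Dazl turned to -0.027 with the GC trend removed, -0.016 without si-ctrl 1 and -0.020 without si-Atad2 1. Tex19.1 turned to -0.0073 without si-Atad2 1.

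The meiosis count of 1 became 2 with TPM, and 0 with no filter, rows of all lengths, a length match only or the highest row alone. The piRNA count of 2 became 1 with the GC trend removed, and 0 with those same 4 settings or a minimum of 5 FPKM. That minimum left 3 genes of the list tested, and Piwil2 and Piwil4, with means under it, were not tested at all. The primordial germ cell count of 3 became 1 with the highest row alone, without the replicate block or without a trend, and 0 with no filter, rows of all lengths, a length match only or the GC trend removed. The two-cell-like count of 4 became 1 with the highest row alone or the GC trend removed, and 0 with no filter, rows of all lengths or a length match only. A length match only left 7, 7, 2 and 6 genes tested in the meiosis, piRNA, primordial germ cell and two-cell-like lists. With a library left out, the counts of the meiosis, piRNA, primordial germ cell, oocyte, repressor and two-cell-like lists were 0 without si-ctrl 1 or si-ctrl 2, then 2, 2, 6, 0, 1 and 8 without si-Atad2 1, and 5, 4, 6, 1, 5 and 10 without si-Atad2 2. Apart from genes that a setting left untested, the cause of these shifts was not tested.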
